A study of Mus musculus with 6 samples.

Results

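The 9 forkhead genes *Foxb1*, *Foxc1*, *Foxc2*, *Foxd1*, *Foxd2*, *Foxf1*, *Foxf2*, *Foxl2* and *Foxq1* were taken by gene name from a table of 38258 mouse genes, and each name matched a single row. RNA-seq libraries were made from epidermis of the back skin of newborn mice (postnatal day 0). The cells were sorted as EpCAM-positive, Sca1-positive and high for α6-integrin, which enriches progenitors of the interfollicular epidermis. Of the 6 libraries, 3 carry the label control, with no allele given. The other 3 carry the genotype label Eed -/- Ring1a-/- Ring1b-/-, a triple knockout. The sources used here do not name the Cre driver or the strain, nor say whether animals were pooled. Ring1a (gene *Ring1*) and Ring1b (gene *Rnf2*) carry the ubiquitin ligase activity of Polycomb repressive complex 1, while Eed belongs to the core of Polycomb repressive complex 2.

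Forkhead proteins are transcription factors that bind DNA through a conserved winged-helix domain. In the embryo, *Foxf1*, *Foxf2*, *Foxc1* and *Foxc2* are known for roles in mesoderm and the mesenchyme derived from it, *Foxd1* for kidney stroma and the developing forebrain and retina, and *Foxb1* for the hypothalamus. *Foxl2* is known from the ovary and the eyelid, and *Foxq1* from the hair shaft, so these names reach beyond mesoderm and forebrain. Developmental regulators of this kind are classic targets of Polycomb repression in embryonic stem cells, where the complexes often sit on promoters rich in CG dinucleotides.

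All 9 genes were higher in the libraries labelled triple knockout. In each of them the lowest labelled knockout stood above the highest control. By limma on log2(normalized count + 1), with adjustment over 23006 tested genes and a threshold of 0.05, 9 of 9 rose and 0 fell, where 20.5% of all tested genes rose, 15.3% fell and 35.8% did either. Groups that did not overlap were found with the labelled knockouts higher for 26.0% of tested genes and with them lower for 23.0%. The 9 genes were chosen with earlier results of these data known, so these shares are no test of the list. The median log2 change of the 9 was 5.16, beside 0.01 over all tested genes, and it was 4.21 for the 7 genes above 0 in at least 1 control. Of the 9 genes, 6 had a control mean of at most 10, and among the 1347 tested genes that start that low 67.6% rose, since such genes could pass the filter (a mean of at least 10 over the 6 libraries) only through the labelled knockouts. Of all calls 57.3% were higher, against 45.6% with quantile normalization and 39.6% with the trend on GC content and length taken out, and under either 8 of the 9 genes rose, all but *Foxc1*. The other 3, *Foxc1*, *Foxf1* and *Foxq1*, had a control mean over 10, where 17.6% of 21659 genes rose. Exact two-sided permutation tests over the 20 assignments of libraries gave p = 0.1 for each of the 9, the smallest p that 3 against 3 libraries allow. Values are normalized counts, given in the order of replicates 1, 2 and 3, with mean ± SD over n = 3 libraries per group. Each log2 change is the labelled knockouts minus the controls, ± SE.

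The labels were checked against the targeted genes, and *Ring1* went against them. *Ring1* was higher in the labelled knockouts (14.6 ± 7.57 against 94.6 ± 23.7, limma adjusted p = 0.000759), *Eed* was lower (835 ± 159 against 476 ± 115, limma adjusted p = 0.0144), and *Rnf2*, at 967 ± 286 against 799.8 ± 115, missed the threshold (limma adjusted p = 0.417). The *Eed* call was lost without control replicate 2 or without labelled knockout replicate 1 or 3 (limma adjusted p = 0.0523, 0.0615 and 0.0543). The sources used here do not name the deleted exons, and RNA of exons that remain would be no check. All directions below are therefore those of the libraries as labelled. Library totals were 21896285 to 29805729 normalized counts, roughly 17.8 M to 37.7 M assigned reads, of which ribosomal RNA held 22.5% to 36.6%. Basal epidermal markers were abundant in every library, with a summed level over 12 genes of 503101 to 622552 in controls and 258186 to 284666 in labelled knockouts. Of these 12 genes 9 fell (background 15.3%) and 2 rose (background 20.5%), *Epcam* and *Ly6a*. These encode EpCAM and Sca1, which were used in the sort of both groups. *Itga6*, for the α6-integrin also used in the sort, is in the list and was not among those that rose. The part of the sort in these values was not tested. In bulk RNA of this kind, fewer cells of a type and less RNA per cell cannot be told apart.

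The promoters shown are those of *Foxl2*, listed at 0 in all controls, of *Foxd1*, which held the fewest CG dinucleotides of the matched genes, and of *Foxc1*, the most strongly expressed in controls. They are the 250 bases before the RefSeq start, 5′ to 3′ on the strand of the gene (GRCm38.p6), with CG in capitals, at chr9:98955357-98955606, chr13:98353995-98354244 and chr13:31806396-31806645, all on the plus strand.
Foxl2: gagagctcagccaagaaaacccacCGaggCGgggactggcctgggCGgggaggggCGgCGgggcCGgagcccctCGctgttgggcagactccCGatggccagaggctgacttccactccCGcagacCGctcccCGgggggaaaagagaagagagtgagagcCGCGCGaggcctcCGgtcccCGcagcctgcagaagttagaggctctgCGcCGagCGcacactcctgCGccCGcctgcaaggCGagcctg
Foxd1: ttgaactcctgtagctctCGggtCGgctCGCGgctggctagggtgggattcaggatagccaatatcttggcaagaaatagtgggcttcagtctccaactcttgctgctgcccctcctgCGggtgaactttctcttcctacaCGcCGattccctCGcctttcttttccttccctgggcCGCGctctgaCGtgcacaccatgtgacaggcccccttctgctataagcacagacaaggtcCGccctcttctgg
Foxc1: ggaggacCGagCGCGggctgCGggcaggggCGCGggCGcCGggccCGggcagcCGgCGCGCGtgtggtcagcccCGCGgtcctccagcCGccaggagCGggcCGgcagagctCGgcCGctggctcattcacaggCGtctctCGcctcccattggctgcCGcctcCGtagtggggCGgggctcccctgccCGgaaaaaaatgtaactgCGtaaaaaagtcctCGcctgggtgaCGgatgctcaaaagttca
The *Foxl2* window lies inside the gene as annotated in the expression table, because the RefSeq start is further downstream. The RefSeq promoter table matched 5 of the 9 genes, *Foxc1*, *Foxd1*, *Foxd2*, *Foxf2* and *Foxl2*. These held 29, 12, 16, 21 and 22 CG dinucleotides in the 250 bases, where the median over 32851 promoters was 6. *Foxc1* had more than 93.2% of promoters and *Foxd1* more than 66.5%. The GC box GGGCGG, searched on both strands as GGGCGG and CCGCCC, was found at least once in all 5 windows (once in *Foxc1* and *Foxd1*, more often in the other 3) and in 32.7% of all promoters. TATAAA and the forkhead motif GTAAACA, each searched on both strands, were found in none of the 5, against 12.4% and 3.17% of all promoters. A CG can lie inside a GC box match.

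**Figure D1:**
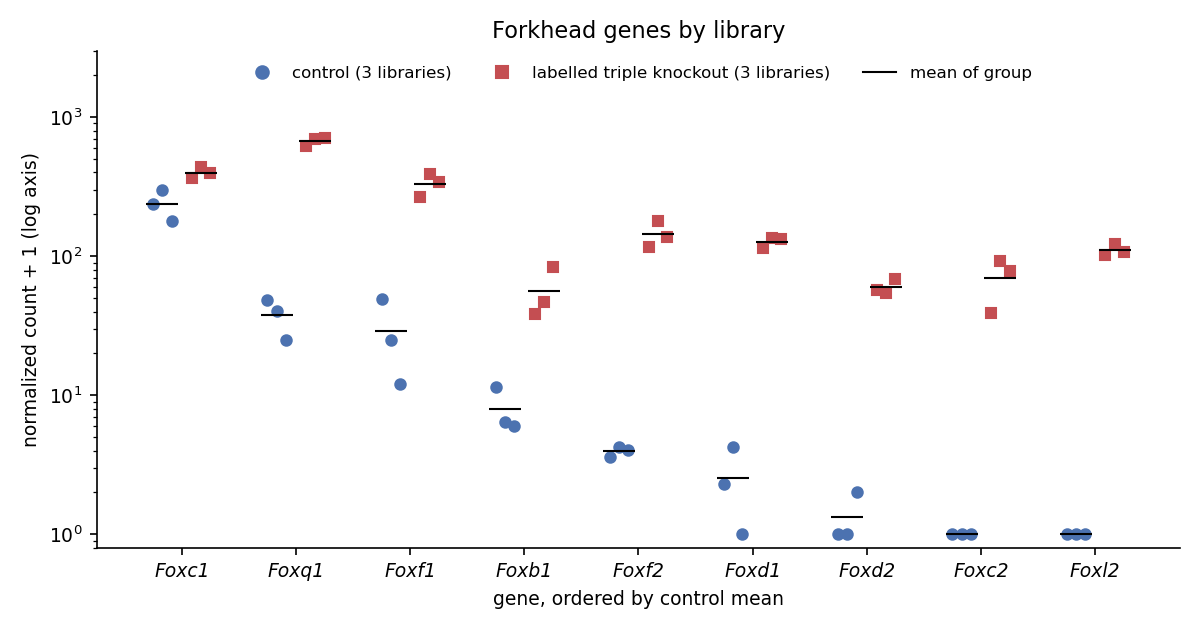
Normalized count plus 1 on a log axis for each of the 9 forkhead genes in the 3 control libraries (circles) and the 3 libraries labelled triple knockout (squares), with the group mean as a line. In every gene the squares lie above the circles, and the gap is narrowest for Foxc1.

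Among the mesenchymal factors, *Foxf1* (ENSMUSG00000042812.5, GRCm38 chromosome 8, 121084386 to 121088144, plus strand), needed for the mesenchyme of gut and lung, was present at a low level in controls. Its normalized counts were 48.5, 23.9 and 11.05 in controls and 265, 386 and 340 in labelled knockouts. The controls spread widely among themselves, and the lowest labelled knockout was 5.47 times the highest control. The log2 change was 3.74 ± 0.45 (limma adjusted p = 0.000254). The ratio of group means, taken on the normalized counts themselves, was 11.9.

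Its paralog *Foxf2* (ENSMUSG00000038402.2, chromosome 13, 31625816 to 31631403, plus strand), a factor of palate and gut mesenchyme, was close to the limit of detection in controls. It stood at 2.62, 3.27 and 3.02 in controls, which corresponds to about 2, 3 and 3 reads, and at 115, 178 and 137 in labelled knockouts. The controls lay close together, at a handful of reads each, and the log2 change was 5.16 ± 0.33 (limma adjusted p = 7.64e-06).

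*Foxc2* (ENSMUSG00000046714.7, chromosome 8, 121116171 to 121118895, plus strand), a factor of lymphatic vessels and axial skeleton, was listed at 0 in all 3 controls. In labelled knockouts it stood at 38.1, 92.1 and 77.3, with replicate 1 the lowest and a coefficient of variation of 40.3%. Its log2 change was 6.04 ± 0.56 (limma adjusted p = 5.94e-05), a figure that depends on the pseudocount because the controls are at 0.

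*Foxc1* (ENSMUSG00000050295.4, chromosome 13, 31806633 to 31812476, plus strand), a regulator of the eye, skeleton and vessels that also keeps mouse hair follicle stem cells quiescent, behaved differently. It was well expressed in controls, at 236, 297 and 177, and stood at 364, 438 and 393 in labelled knockouts. The groups did not overlap, but the lowest labelled knockout was only 1.23 times the highest control. The log2 change was 0.78 ± 0.22 (95% interval 0.29 to 1.27, limma adjusted p = 0.0209), the smallest of the 9. The call was lost with quantile normalization (log2 change 0.58, limma adjusted p = 0.0603), with the trend on GC content and length taken out (0.0079, limma adjusted p = 0.983), and when labelled knockout replicate 2 or 3 was left out (limma adjusted p = 0.0839 and 0.0618). Over its 15 alternatives the adjusted p ranged from 0.0112 to 0.983.

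*Foxd1* (ENSMUSG00000078302.5, chromosome 13, 98354242 to 98359305, plus strand), a factor of kidney stroma and retina, was at 1.31, 3.26 and 0 in controls, about 1, 3 and 0 reads. In labelled knockouts it stood at 113, 133 and 132. The labelled knockouts were tight, with a coefficient of variation of 9.30%, and the log2 change was 5.89 ± 0.54 (limma adjusted p = 5.35e-05).

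*Foxd2* (ENSMUSG00000055210.4, chromosome 4, 114906282 to 114908873, minus strand), a relative expressed in paraxial mesoderm, was listed at 0 in controls 1 and 2 and at 1.003, about 1 read, in control 3. In labelled knockouts it stood at 55.9, 52.96 and 68.03. No control came near a labelled knockout, and the log2 change was 5.56 ± 0.54 (limma adjusted p = 7.32e-05).

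*Foxb1* (ENSMUSG00000059246.4, chromosome 9, 69757710 to 69760940, minus strand), a factor of the hypothalamus, was at 10.5, 5.44 and 5.02 in controls and at 37.3, 45.6 and 82.4 in labelled knockouts. Labelled knockout 3 was the highest, and the coefficient of variation was 43.6% in either group. The log2 change was 2.79 ± 0.44 (limma adjusted p = 0.00113). An antisense gene, *B230323A14Rik*, overlaps *Foxb1*. It was listed at 0 in controls and reached 8.42, 3.10 and 1.70 in labelled knockouts, too low to be tested. The strand setting is not given, so whether reads of this pair were told apart is not known.

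*Foxl2* (ENSMUSG00000050397.4, chromosome 9, 98955288 to 98958543, plus strand), which maintains ovarian granulosa cells, was listed at 0 in all 3 controls. It stood at 100.2, 121 and 107 in labelled knockouts. These 3 values were close together, and the fitted log2 change, 6.78 ± 0.45 (limma adjusted p = 8.55e-06), was the largest of the 9.

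*Foxq1* (ENSMUSG00000038415.10, chromosome 13, 31556134 to 31560976, plus strand), whose loss gives mice a satin coat through the hair medulla, was at 47.2, 39.1 and 24.1 in controls. In labelled knockouts it reached 624, 692 and 712, the highest counts of any of the 9 genes. The log2 change was 4.21 ± 0.26 (limma adjusted p = 6.55e-06), and the ratio of group means of the normalized counts was 18.4. Of 15 hair follicle markers in the same libraries, 4 rose and 7 fell, beside 20.5% and 15.3% of all tested genes. The summed level of the 15 was 10836 to 14156 in controls and 13429 to 15583 in labelled knockouts, and their part in the *Foxq1* result was not tested.

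**Figure D2:**
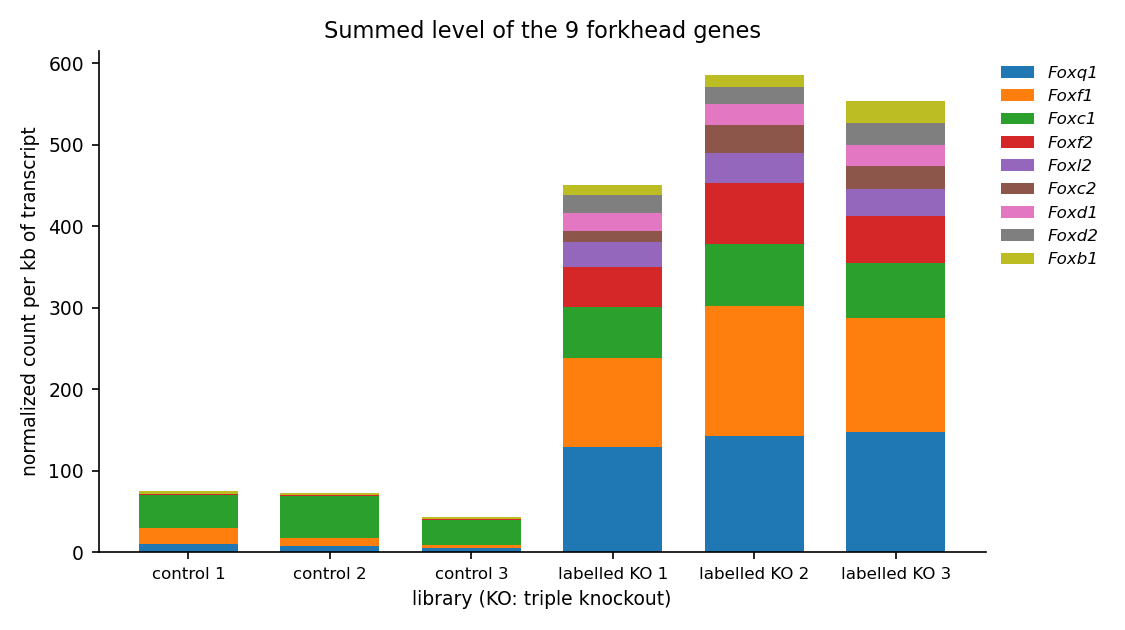
Summed normalized count per kb of transcript of the 9 forkhead genes in each library, stacked by gene. The sum is 43.2 to 75.1 in the controls, mostly Foxc1, and 450 to 586 in the libraries labelled triple knockout, where Foxq1 and Foxf1 are the largest parts.

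Levels were compared between genes per kb of the longest annotated transcript. In controls *Foxc1* led, at 40.5 ± 10.3 normalized counts per kb. *Foxf1* (11.5 ± 7.88) and *Foxq1* (7.60 ± 2.42) followed with overlapping ranges, then *Foxb1* (2.34 ± 1.02), *Foxf2* (1.26 ± 0.137), *Foxd1* (0.301 ± 0.324) and *Foxd2* (0.129 ± 0.223). *Foxd1* and *Foxd2* overlapped, as did *Foxd2* and the 2 genes at 0.

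In labelled knockouts the order was different. *Foxq1* (139.5 ± 9.55 per kb) and *Foxf1* (137 ± 25.2) overlapped at the top, followed by *Foxc1* (68.1 ± 6.44) and *Foxf2* (60.6 ± 13.7), which also overlapped. *Foxl2* (33.5 ± 3.22), *Foxc2* (25.4 ± 10.2), *Foxd1* (24.9 ± 2.32), *Foxd2* (22.7 ± 3.08) and *Foxb1* (18.5 ± 8.05) formed the lower end, where each gene overlapped the next. The share of *Foxc1* in the summed level per kb was 53.8%, 69.9% and 70.1% in controls and 13.8%, 12.8% and 12.1% in labelled knockouts. The share of *Foxq1* lay between 11.1% and 12.98% in controls and at 24.4% to 28.6% in labelled knockouts. Measured against all 40 forkhead genes of the table, the 9 held 1.45%, 1.55% and 0.819% of the level per kb in controls and 8.31%, 9.66% and 8.63% in labelled knockouts.

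Over the 6 libraries, the profiles nearest to the 3 most abundant genes by Euclidean distance on the log2 scale, among protein-coding genes other than the 9, were *Tmprss2* (0.66) and *Pax6* (0.95) for *Foxq1*. For *Foxf1* they were *Hoxa9* (0.96) and *Lypd5* (1.11). For *Foxc1* they were *Taok3* (0.39) and *Med19* (0.40).

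The genes lie partly in clusters. On chromosome 8 *Foxc2* starts 28.0 kb after the end of *Foxf1*. On chromosome 13 *Foxf2* starts 64.8 kb after *Foxq1*, and *Foxc1* a further 175 kb on. Within 100 kb of the 9 genes, 19 other genes were tested, of which 7 rose (background 20.5%) and 3 fell (background 15.3%), with a median log2 change of 0.17. Only 4 rose without labelled knockout replicate 1 or 2.

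Of the noncoding genes that start beside a forkhead gene on the other strand, 3 were tested and all 3 rose (background 20.5%). *Foxl2os*, whose start overlaps that of *Foxl2*, was at 22.2, 18.4 and 13.6 in controls and 256, 480 and 258 in labelled knockouts (log2 change 4.08 ± 0.32, limma adjusted p = 2.01e-05). Unlike *Foxl2* itself, it was above 0 in every control. *Fendrr*, a long noncoding RNA that starts 1.28 kb from *Foxf1* and is needed in mouse lateral mesoderm, was at 10.6, 9.12 and 15.3 against 73.0, 54.8 and 83.4 (log2 change 2.51 ± 0.33, limma adjusted p = 0.000439). *Foxd2os*, 0.384 kb from *Foxd2*, was at 21.3, 9.51 and 8.77 against 36.2, 40.6 and 39.6 (log2 change 1.59 ± 0.40, limma adjusted p = 0.0126). In all 3 the groups did not overlap, which with the labelled knockouts higher was so for 26.0% of all tested genes. *1700018A04Rik*, 0.024 kb from *Foxf2*, was listed at 0 in controls and stood at 24.9, 0.693 and 6.63, too low to be tested.

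The remaining neighbours were mixed. *Mthfsd*, between *Foxf1* and *Foxc2*, stood at 290 ± 49.6 against 306 ± 66.9 and missed the threshold (limma adjusted p = 0.843). *Foxl1*, 9.05 kb beyond *Foxc2* and another factor of gut mesenchyme, stood at 1.31, 2.17 and 0 against 1.77, 3.18 and 8.59, too low to be tested. Around *Foxc1*, the noncoding gene *Gm11379*, 5.84 kb away, fell from 84.4 ± 48.6 to 9.51 ± 1.39 (limma adjusted p = 0.00217), and *Gm48883* fell from 89.6 ± 40.5 to 20.4 ± 10.3 (limma adjusted p = 0.00676). *Gm48883* lies within *Gmds*, an enzyme gene of fucose synthesis, which rose from 87.9 ± 21.1 to 157 ± 15.8 (limma adjusted p = 0.0230), so reads of this pair can be divided wrongly. Further out, *Stil*, a centriole gene 91.3 kb from *Foxd2*, fell from 1963 ± 45.5 to 824 ± 117 (limma adjusted p = 0.000170), and *Cmpk1*, a nucleotide kinase gene 50.5 kb away, rose from 938 ± 119 to 1464 ± 274 (limma adjusted p = 0.0193). *Faim*, 27.8 kb from *Foxl2*, rose from 327 ± 87.3 to 624 ± 43.1 (limma adjusted p = 0.00712). A predicted gene that spans the whole *Foxf1* to *Foxc2* region, *Gm20388*, also rose (limma adjusted p = 0.0146), and reads can pass between it and the genes it overlaps.

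**Figure D3:**
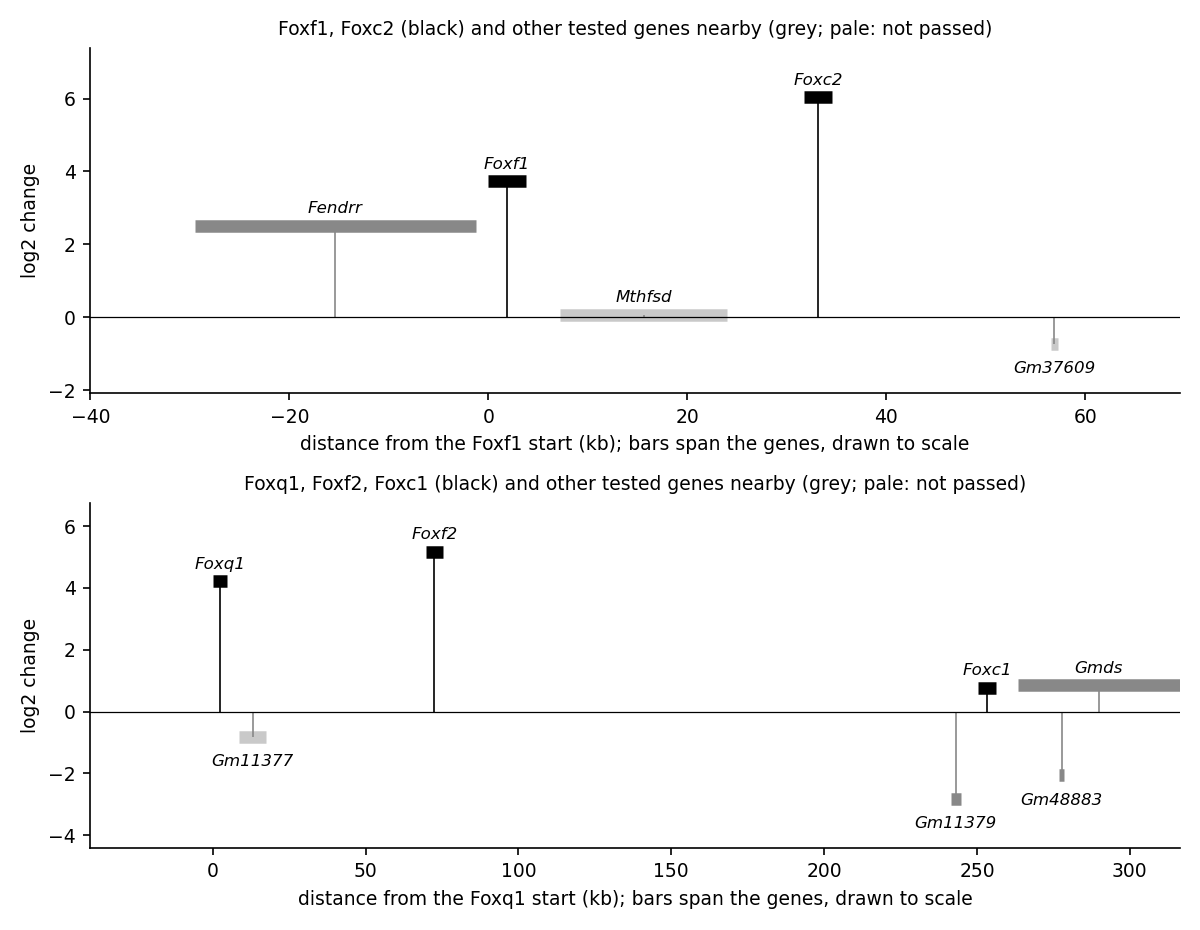
Log2 change of the forkhead genes (black) and other tested genes (grey, pale where the limma test was not passed) against distance in kb from the start of Foxf1 (top) and Foxq1 (bottom), with bars spanning each gene. Gmds is cut at the right edge and Gm20388, which spans the whole upper region, is left out; Foxf1, Foxc2, Foxq1 and Foxf2 stand high, Mthfsd lies near 0, and Gm11379 and Gm48883 lie below 0 beside Foxc1.

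The rest of the forkhead family was mixed. Of 31 other forkhead genes in the table, 24 were tested, of which 11 rose (background 20.5%), 2 fell and the other 11 missed the threshold; their median log2 change was 0.52. Without labelled knockout replicate 3, 7 rose. With the trend on GC content and length taken out, 7 were higher and 8 lower, at a median of −0.05. The endoderm factors *Foxa1* and *Foxa2* rose from 27.5 ± 14.1 to 462 ± 132 and from 0.277 ± 0.480 to 24.4 ± 6.72 (limma adjusted p = 8.87e-05 and 0.000932). *Foxd3*, a neural crest factor, rose from 2.11 ± 2.60 to 96.0 ± 32.5 (limma adjusted p = 0.000272) and *Foxp4* from 972 ± 49.3 to 2164 ± 168 (limma adjusted p = 0.000157). *Foxm1*, which drives genes of mitosis, fell from 2473 ± 626 to 417 ± 73.0 (limma adjusted p = 2.63e-05). The broadly expressed *Foxo3* (3149 ± 757 against 4326 ± 545, limma adjusted p = 0.0662), *Foxk1* (3330 ± 310 against 3807 ± 422, limma adjusted p = 0.311), *Foxp1* (3054 ± 241 against 3172 ± 236, limma adjusted p = 0.771) and *Foxj3* (2096 ± 213 against 1840 ± 94.6, limma adjusted p = 0.305) missed the threshold.

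**Figure D4:**
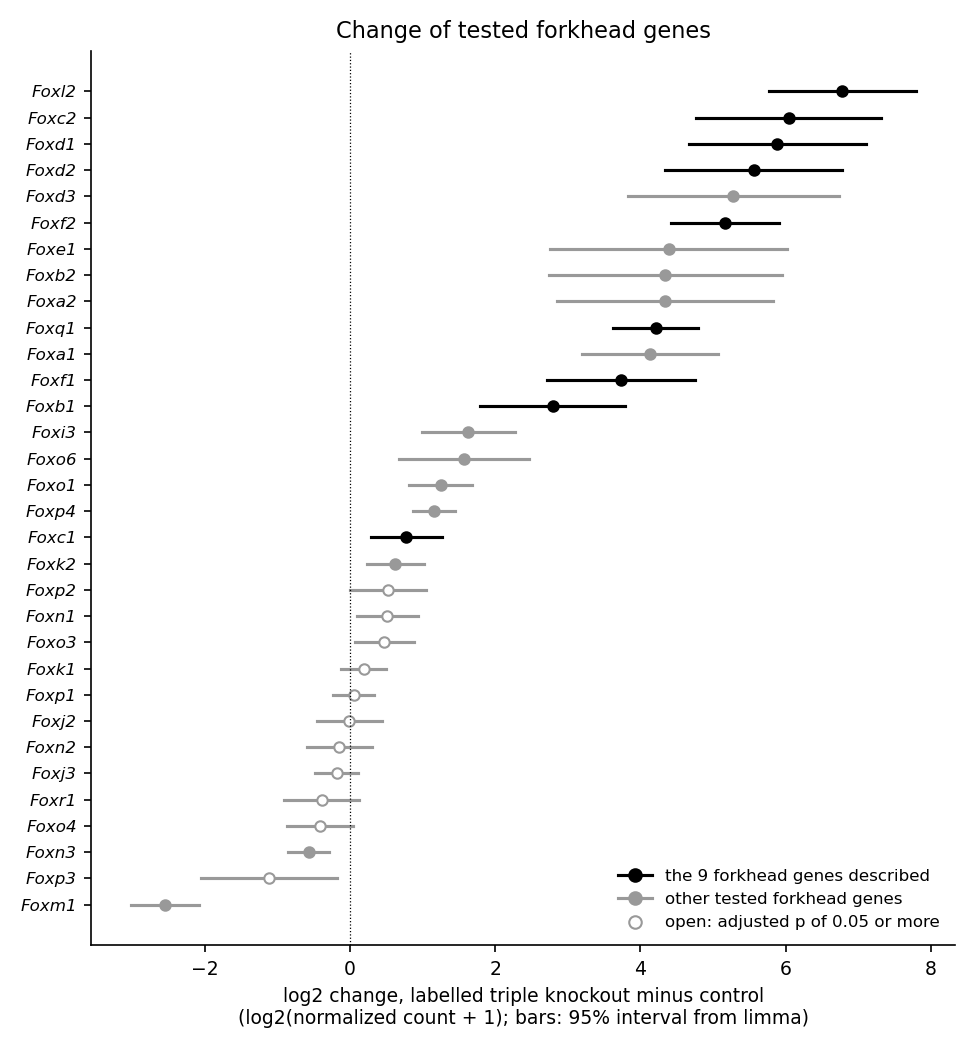
Log2 change of tested forkhead genes with the 95% interval from limma, the 9 described here in black and others in grey (1 of the 24 is not shown), open where the adjusted p was 0.05 or more. The 9 range from 0.78 (Foxc1) to 6.78 (Foxl2), and Foxm1 is lowest.

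Transcription factors of other families with roles in mesoderm or forebrain were counted in the same way. Of 22 tested mesodermal factors 18 rose and 0 fell (background 20.5% and 15.3%), and the median log2 change was 2.85. Testing every gene of the table, 21 of 26 rose (background 14.3%). *Gata6* rose from 18.9 ± 2.09 to 477 ± 26.5 (limma adjusted p = 1.51e-06), *Wt1* from 15.4 ± 4.001 to 713 ± 85.4 (limma adjusted p = 1.63e-06), *Six2* from 12.3 ± 6.13 to 492 ± 58.8 (limma adjusted p = 1.02e-05) and *Osr2* from 84.5 ± 65.2 to 2047 ± 48.6 (limma adjusted p = 4.47e-05). *Barx1* rose as well, and *Hand2*, listed at 0 in controls, reached 105 ± 27.9 (limma adjusted p = 1.24e-05). *Meox1*, *Meox2*, *Mesp2* and *Twist2*, factors of somites and dermal mesenchyme, did not pass, with log2 changes of −0.11, 0.60, 0.51 and −0.67. Of 15 tested forebrain factors 12 rose and 0 fell (background 20.5% and 15.3%). Their median log2 change was 4.16, and with no filter 12 of 21 rose (background 14.3%). Of the 26 mesodermal and 21 forebrain factors in the table, 3 and 6 were listed at 0 in all controls. Among all tested genes with a control mean of at most 10, 67.6% rose. *Fezf1*, *Six3* and *Nkx2-1* rose by 8.23, 5.15 and 4.69 on the log2 scale, the eye factor *Pax6* from 39.3 ± 16.5 to 682 ± 55.5 (limma adjusted p = 1.20e-05), *Otx2* from 1.33 ± 2.31 to 294 ± 54.2 (limma adjusted p = 2.81e-05) and *Otx1* from 23.9 ± 10.6 to 313 ± 61.1 (limma adjusted p = 3.80e-05). *Lhx2* (747 ± 544 against 1180 ± 219, limma adjusted p = 0.124), *Pou3f2* and *Six6* did not pass.

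Hedgehog signalling is known to maintain *Foxf1*, *Foxf2* and *Foxl1* in gut mesenchyme, and its genes were counted in the same way. Of 14 tested hedgehog genes 6 fell (background 15.3%), 1 rose and 7 missed the threshold; the median log2 change was −0.54. With the trend on GC content and length taken out, 10 fell. The receptor gene *Ptch1*, which is also a pathway target, fell from 20477 ± 3887 to 8823 ± 870 (limma adjusted p = 0.000419). *Disp1*, needed for ligand release, fell from 930 ± 185 to 337 ± 68.4 (limma adjusted p = 0.000606), and the transcription factors *Gli2* and *Gli3* from 3562 ± 67.4 to 1885 ± 575 and from 2557 ± 389 to 1485 ± 234 (limma adjusted p = 0.00421 and 0.00497). The ligand gene *Dhh* rose from 32.6 ± 28.2 to 258 ± 30.6 (limma adjusted p = 0.00321). The target *Gli1* (1243 ± 270 against 882 ± 194, limma adjusted p = 0.0897), *Smo*, *Gas1* and *Boc* did not pass.

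Several of the 9 genes are expressed in fibroblasts, vessel walls or endothelium, so markers of those cells were read in the same libraries. Of 14 fibroblast markers 1 rose, *Pdgfrb*, and 4 fell (background 20.5% and 15.3% of all tested genes), and the median log2 change was −0.67. Their summed level was 26090, 31549 and 58312 in controls 1, 2 and 3, and 13196 to 19972 in labelled knockouts. Control 3 was also the highest control for the endothelial, mural and leukocyte sums below. It held the largest share of ribosomal RNA, mitochondrial included, of the 6 libraries (36.6%). Without control 3, 5666 genes were called higher, against 4726 with it. What sets this library apart was not tested. Of 10 tested endothelial markers 0 rose and 1 fell (background 20.5% and 15.3%). Their summed level over 12 genes was 351 to 937 in controls and 461 to 711 in labelled knockouts. Of 8 mural cell markers 3 rose (background 20.5%), *Acta2*, *Tagln* and *Notch3*, while *Myh11*, *Des*, *Rgs5*, *Cspg4* and *Kcnj8* did not pass. The summed level of the 8 was 1208 to 1913 in controls and 4334 to 4827 in labelled knockouts.

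Leukocyte markers were 1 higher of 9 tested (background 20.5%), with sums of 1151 to 2863 in controls and 1741 to 2099 in labelled knockouts. Melanocyte markers were 7 higher of 8 (background 20.5%), with sums of 406 to 579 in controls and 1241 to 1865 in labelled knockouts. Schwann cell markers were 3 higher and 1 lower of 6 tested (background 20.5% and 15.3%), with sums of 4976 to 5522 and 5227 to 5617. *Foxd3*, reported above with the forkhead family, is among the 3 that rose, and *Sox10* is in both the Schwann cell and melanocyte lists. Of 8 skeletal muscle genes 3 were tested, of which 1 rose, *Pax7* (background 20.5%), and 2 did not pass. The summed level was 77.8 to 123 in controls and 802 to 1003 in labelled knockouts, of which *Pax7* alone held 710.5 to 895.5. Of the 8, the 2 listed at 0 in all controls, *Myod1* and *Myf5*, stood at no more than 1.44 in labelled knockouts. The part of any of these cell types in the forkhead results was not tested.

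**Figure D5:**
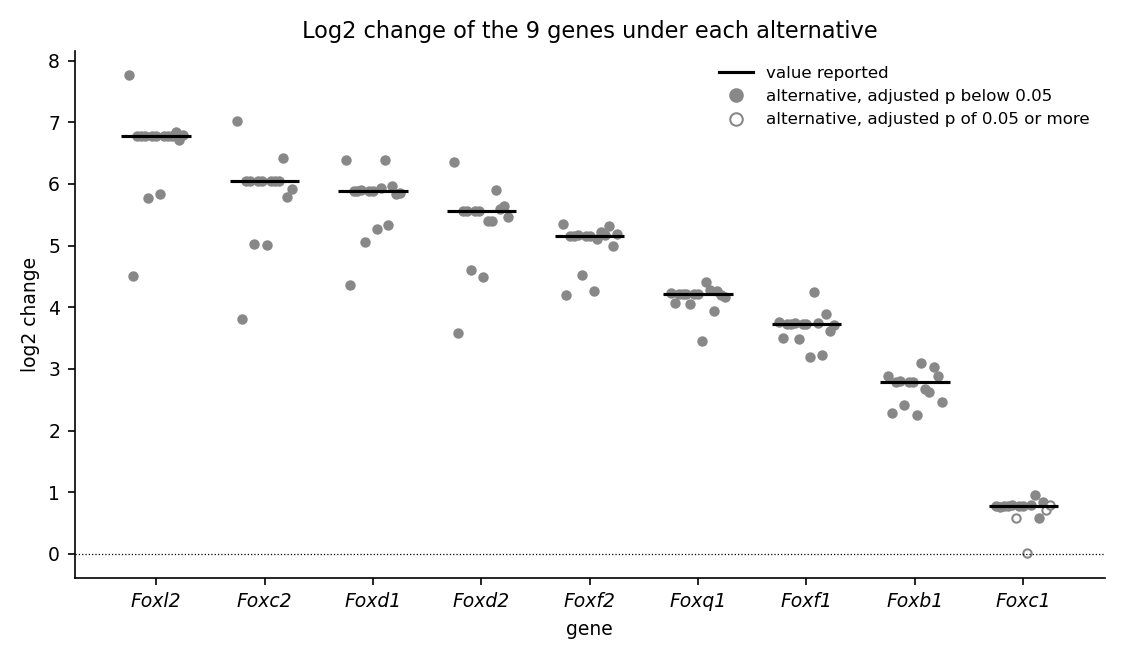
Log2 change of each of the 9 genes as reported (line) and under each alternative processing or with 1 library left out (points, open where the limma adjusted p was 0.05 or more). The open points all belong to Foxc1, whose lowest value is 0.0079, and no point lies below 0.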

How the data were processed

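Values are the deposited normalized counts of each gene in each of the 6 libraries; per the file headers they are normalized, so they were handled as a signal rather than as raw read counts. Kallisto 0.42.5 and DESeq2 were used, per the submitters' processing notes; the annotation, build and strand setting are not given in the sources used here. Amplified cDNA was sequenced as single reads of 100 nucleotides, per the labels' protocols. In each library the most frequent non-zero value was read as 1 read (0.716 to 1.31). Of values up to 20 reads, 25.9% to 42.6% were whole multiples within 0.01 of a read, so whole reads were not recovered and no count model was run. An exact 0 can be a failed estimate.

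Of the 38258 gene identifiers, 37483 were found in GENCODE M21, all with identical coordinates, from which GRCm38 is named. Transcript length and GC content are those of the longest transcript there, and 99.98% of tested genes had them. Promoters are from RefSeq (GRCm38.p6).

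Genes with a mean of at least 10 (23006) entered limma 3.58.1 (R 4.3.3) on log2(normalized count + 1), which understates the change of low genes, with trended prior variance, robust estimation and no covariates; p-values were adjusted by Benjamini-Hochberg. No source says that replicates are separate animals. The p-values therefore cover only the spread among these libraries, which may be technical. The fit was tested on simulated data, where only genes with a control level over 10 were changed. That test does not cover the 6 of the 9 forkhead genes with a control mean of at most 10. A gene that missed the threshold is not thereby shown to be equal in both groups.

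The alternatives tried were a pseudocount of 0.5 or 5, and a filter at a mean of 50 or none. With no filter, every gene above 0 in any library was tested. Further alternatives were trimmed-mean or quantile normalization, limma with neither trend nor robust step, and a block on replicate number. The last were a spline on GC content and length taken out of each library, and each library left out in turn. The members and lists were chosen with earlier results of these data known. Named beside the 9 genes are the targets, up to 6 called genes of each list with the smallest p, up to 4 of its most abundant genes that did not pass, called or antisense neighbours within 100 kb, and nearest profiles; 2 of them enter the counts but are not reported here by name. Marker genes and 2 neighbours (*Mthfsd* and *Foxl1*) were named outside this rule, after their values were seen.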

Additional observations from a re-analysis of the deposited data

How the results depend on the processing

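Of the 9 forkhead genes, 8 kept their direction and call under every alternative run for them; *Foxb1*, *Foxc2* and *Foxd2* could not be tested with a mean of at least 50. *Foxc1* lost its call with quantile normalization (0.58) and with the trend on GC content and length taken out (0.0079), and its log2 change lay between 0.58 and 0.96 when single libraries were left out, with the call lost without labelled knockout replicates 2 and 3. *Eed* lay between −1.01 and −0.67 when single libraries were left out. With quantile normalization the median log2 change over all tested genes shifted by −0.18, and 45.6% of calls were then higher, against 57.3%; the GC and length correction shifted it by −0.19, with 39.6% of calls higher and 5666 genes lower against 3516. After that correction, 7 other forkhead genes rose and 8 fell (11 and 2 as reported) and 10 hedgehog genes fell; 4 other forkhead genes fell with quantile normalization. Leaving out single libraries, 7 to 12 other forkhead genes and 4 to 8 neighbour genes rose. Without trend or robust estimation 5 neighbour genes fell. With a mean of at least 50, 7 of 8 forebrain factors rose. The cause was not tested for any of these, except that fewer genes are tested with a stricter filter. Counts over all genes when single libraries were left out were 3568 to 5666 higher and 2501 to 4006 lower.

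Deviations from the group mean gave correlations of 0.06, −0.02 and 0.02 between same-numbered libraries across 23006 genes. Differently numbered pairs lay between −0.09 and 0.07. No pairing by replicate number was seen, but with 3 libraries per group this check cannot exclude a weak one. With the replicate number as a block, all 9 forkhead genes rose (*Foxc1* limma adjusted p = 0.0206), and 4761 genes were higher and 3345 lower. Control values of *Foxc2*, *Foxd1*, *Foxd2*, *Foxf2* and *Foxl2* rest on 0 to 3 reads per library, so their log2 changes follow the pseudocount (*Foxl2* 7.77 with 0.5 and 4.51 with 5).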
